A study of Mus musculus with 2 samples.

Results

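Basophils and mast cells, the granulocytes that carry the high-affinity receptor for IgE, made up 150 of the 7967 cells kept in the EM library of a mouse glioma study (1.88%, exact 95% interval 1.60 to 2.21). They were chosen by their transcripts: at least 3 unique molecular identifiers (UMIs, counted mRNA molecules) summed over Mcpt8, Cpa3, Fcer1a, Ms4a2 and Cyp11a1, at most 1 UMI over Cd3d, Cd3e and Cd3g, and none of Flt3 or Siglech. The series holds 2 libraries of 15723 kept cells in all, each from living CD45.2+CD45.1- immune cells sorted out of glioma tissue, which the labels call endogenous, and each read with the BD Rhapsody single-cell system. The EM library comes from tumours treated with EM and carries 72 h in its title. The PBS library comes from tumours treated with PBS. The labels do not spell out EM, and they give no strain, age, tumour line, number of animals or time for PBS. Each treatment has 1 library, so no difference below has a replicate check or a test, and the intervals cover counting error only.

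Basophils mature in the bone marrow and enter tissue from the blood, whereas mast cells mature within tissue under the control of Kit, the receptor for stem cell factor. Both fire when antigen bridges the IgE on their surface, and both store histamine and serine proteases on the proteoglycan serglycin. In mice the protease Mcpt8 marks basophils, Mcpt1 and Mcpt2 mark mast cells of mucosal surfaces, and Mcpt4, Cma1 and Tpsb2 mark mast cells of connective tissue.

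The members held 419057 UMIs, with 562 to 10464 UMIs per cell and a median of 2277. They are set beside 691 other myeloid cells and 4826 T cells of the same library. The other myeloid cells held at least 2 UMIs of the lysozyme gene Lyz2 and at most 1 Cd3 UMI (median 1132 UMIs per cell). The T cells held at least 2 Cd3 UMIs and at most 1 Lyz2 UMI (median 2169.5). Cells with 3 or more UMIs of the 5 rule genes were in neither group. The kept cells had a median of 2016 UMIs in the EM library and 4303 UMIs in the PBS library. The libraries also differ in sex-linked transcripts, with Xist at 384 CPM (counts per 1000000 summed UMIs) in EM and 10.6 CPM in PBS, and the Y-linked Ddx3y at 4.46 CPM in EM and 192 CPM in PBS. Treatment and the animals of each library therefore cannot be told apart. The libraries shared 66 cell barcodes, of which 2 belonged to EM members. Doublets were not removed, and free RNA from lysed cells is part of the counts.

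The members fell into 2 kinds by 8 mast cell genes (Kit, Cma1, Mcpt4, Tpsb2, Tpsab1, Mrgprb2, Mcpt1 and Mcpt2). There were 52 mast-like members, with 7 to 1185 summed UMIs of these genes and a median of 397.5, and 98 basophil-like members, of which 96 held none and 2 held 1. The line between them was set at 5 UMIs, and between 7 and 48 UMIs lay no cell. Mast-like cells were deeper, with a median of 3890 UMIs and 1635.5 genes per cell, against 2015.5 UMIs and 846.5 genes in basophil-like cells. Their mitochondrial share had a median of 6.80%, against 2.12% in basophil-like cells. Because the 8 genes chose the mast-like cells, their difference from the basophil-like cells is a description.

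**Figure D1:**
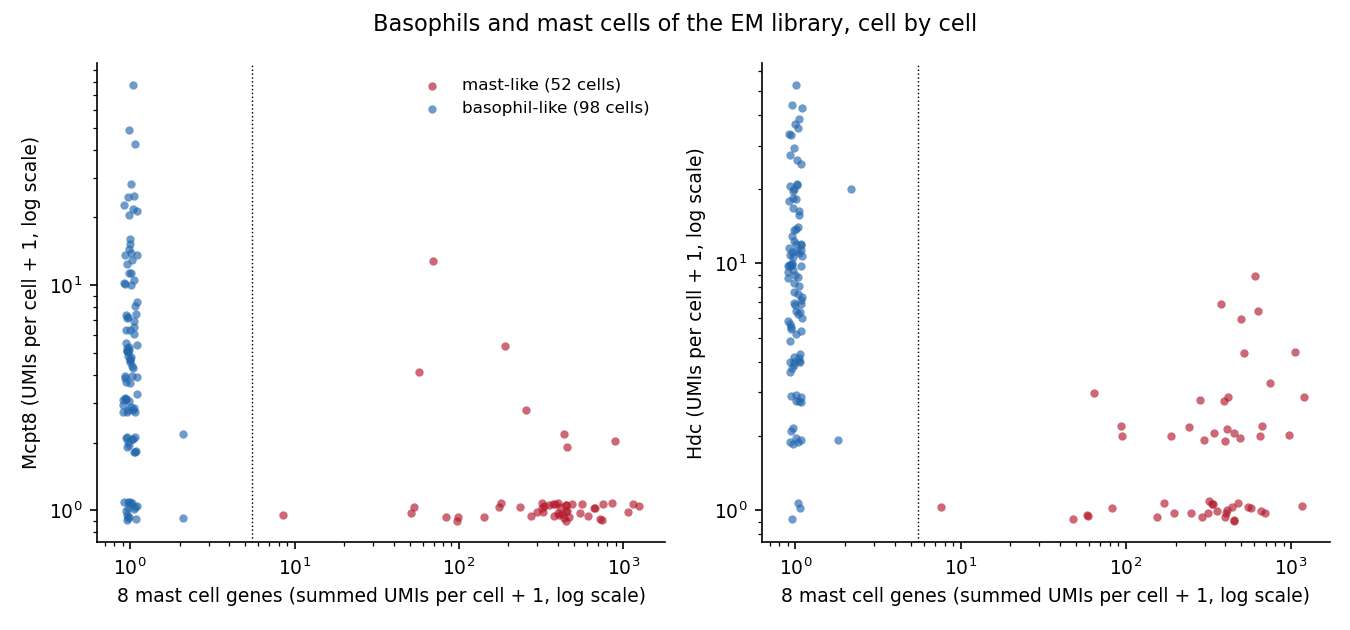
Each point is 1 EM member, mast-like (52 cells) or basophil-like (98 cells), placed by its summed UMIs of 8 mast cell genes (x) and its UMIs of Mcpt8 or Hdc (y), with 1 added and both axes logarithmic; the dotted line marks the threshold of 5 UMIs. The mast-like cells lie apart at 7 to 1185 UMIs, and 7 of them held Mcpt8, against 82 basophil-like cells.

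The 5 genes of the rule were shared out unequally between both kinds. Cpa3, the mast cell carboxypeptidase, was found in all 52 mast-like cells at 13322 CPM, against 22 basophil-like cells at 185 CPM. Mcpt8 went the other way, with 7 mast-like cells at 117 CPM and 82 basophil-like cells at 3307 CPM. The 16 basophil-like cells without an Mcpt8 UMI all held Cd200r3 or Gata2. Fcer1a, the IgE-binding chain of the receptor, was at 3261 CPM in mast-like and 471 CPM in basophil-like cells, and Ms4a2, its beta chain, was at 1333 CPM in mast-like and 699 CPM in basophil-like cells. Cyp11a1, which starts steroid synthesis from cholesterol, was at 671 CPM in mast-like and 1350 CPM in basophil-like cells. In other myeloid cells and in T cells each of the 5 genes stood at or below 1.93 CPM. Cells with 3 or more UMIs of these genes were kept out of both groups, so this low level was set in part by the selection.

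Cells just inside and just outside the threshold both held other genes of these lineages. Of the 5 members with exactly 3 rule UMIs, 3 held Cd200r3, 3 held Gata2 and 3 held Hdc, none of which the rule used. Of the 13 EM cells with 2 rule UMIs that met the other limits, 9 held Cd200r3, 9 held Gata2 and 12 held Hdc. Another 11 EM cells passed 3 rule UMIs but were left out, 9 of them for Cd3 and 2 for Flt3. Across the members 148 of 150 held at least 1 of the 3 genes. Without Lyz2, which chose the other myeloid cells, 13 monocyte and macrophage markers summed to 136 CPM in mast-like and 1127 CPM in basophil-like cells, against 16937 CPM in other myeloid cells. A single basophil-like cell with 72 Lyz2 UMIs held 90% of the members' Lyz2. Without the 3 Cd3 genes, which were limited in members and chose the T cells, 11 T cell markers summed to 372 CPM in members and 8453 CPM in T cells. The 8 NK cell markers summed to 455 CPM in mast-like and 68.0 CPM in basophil-like cells, with 1 mast-like cell at 25440 CPM.

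The start regions of 3 genes are shown because their genes mark each kind and the pair together: Mcpt8 for basophil-like cells, its chromosome 14 neighbour Mcpt4 for mast-like cells, and Ms4a2 for both. Each runs from 250 bases before to 50 bases after the start in RefSeq (GRCm38.p6), 5′ to 3′ on the minus strand, at chr14:56085148-56085447 for Mcpt8, chr14:56062261-56062560 for Mcpt4 and chr19:11623670-11623969 for Ms4a2. Capitals mark GATAA or its reverse complement TTATC, the core letters bound by GATA factors such as Gata2, and TGTGGT or its reverse complement ACCACA, the core letters bound by Runx factors.
Mcpt8: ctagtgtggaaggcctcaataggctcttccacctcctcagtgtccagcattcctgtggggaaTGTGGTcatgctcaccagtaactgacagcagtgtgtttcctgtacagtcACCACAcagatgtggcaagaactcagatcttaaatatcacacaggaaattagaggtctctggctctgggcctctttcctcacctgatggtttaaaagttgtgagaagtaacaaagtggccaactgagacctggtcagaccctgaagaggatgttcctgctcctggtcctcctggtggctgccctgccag
Mcpt4: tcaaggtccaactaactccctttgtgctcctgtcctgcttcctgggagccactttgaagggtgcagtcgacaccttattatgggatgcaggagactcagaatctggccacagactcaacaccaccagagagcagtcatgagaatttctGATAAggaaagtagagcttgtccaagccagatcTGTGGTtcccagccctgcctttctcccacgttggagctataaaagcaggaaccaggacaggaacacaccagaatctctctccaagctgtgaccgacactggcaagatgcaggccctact
Ms4a2: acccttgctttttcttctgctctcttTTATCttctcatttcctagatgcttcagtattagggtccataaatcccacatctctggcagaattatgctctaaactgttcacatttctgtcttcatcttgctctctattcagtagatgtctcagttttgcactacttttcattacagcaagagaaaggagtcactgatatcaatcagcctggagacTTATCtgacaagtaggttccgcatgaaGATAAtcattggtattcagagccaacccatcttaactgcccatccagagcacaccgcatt
Mcpt8 held 0 GATAA and 2 TGTGGT matches on either strand, Mcpt4 held 1 of each, and Ms4a2 held 3 GATAA and 0 TGTGGT matches. No matches overlapped. Of 32851 RefSeq start regions of the same length, 8347 (25.4%) held GATAA and 5506 (16.8%) held TGTGGT, so these letters are common and are given as a description of the sequence. The levels of the factors themselves are given further on.

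Mast-like cells carried chymases of both the mucosal and the connective tissue kind in the same cell. Mcpt2 had 0, 191.5 and 689 UMIs per mast-like cell as the lowest, median and highest value, and Mcpt1 had 0, 65.5 and 241. Mcpt4 had 0, 42.5 and 139, the tryptase Tpsb2 had 0, 40.5 and 205, and the chymase Cma1 had 0, 11 and 88. Mcpt2 and Mcpt4 were found together in 48 of 52 mast-like cells, and all of Mcpt1, Mcpt2, Mcpt4, Cma1 and Tpsb2 in 40 of 52. Mcpt1 and Mcpt2 together made up 0% to 94.8% of their sum with Mcpt4, Cma1, Tpsb2 and Tpsab1 in a mast-like cell, with a median of 71.2%. Cma2, Mcpt9, Tpsg1 and Prss34 were not counted in this share. Of the 52 cells, 47 lay between 25% and 90%, 3 were under 10% and 2 were over 90%, so few cells held one kind of protease almost alone. The proteases share sequence, so reads of Mcpt1, Mcpt2, Mcpt4 and Mcpt9, of Cma1 and Cma2, and of Tpsb2 and Tpsab1 may have been split between near copies.

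Basophil-like cells held almost none of these proteases. Mcpt1 was at 19309 CPM in mast-like cells and at 0 UMIs in all basophil-like cells, at least 1326-fold higher in mast-like cells, where the basophil-like level is set to 3 counts over the group. The exact interval reached lower, to log2 10.07 for Mcpt1 beside log2 10.37 for this bound. The same bound was at least 842-fold for Mcpt4, 940.3-fold for Tpsb2, 126-fold for Kit, 107.6-fold for Tpsab1 and 58.6-fold for Tpsg1. Mcpt2 was at 48806 CPM in mast-like cells and at 1 UMI in basophil-like cells. Of other cells, 11 of 691 myeloid cells (1.59%) and 94 of 4826 T cells (1.95%) held an Mcpt2 UMI, so 1 of 98 basophil-like cells (1.02%, interval 0.0258 to 5.55) is at the level of cells that should lack the gene. Apart from Tpsg1, these genes helped choose the mast-like cells. Cma2 did not help either, and it was found in 17 mast-like cells at 1854 CPM, with 40% of its UMIs in 1 cell.

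On chromosome 14 (GRCm38, GENCODE M21) the genes of both kinds lie side by side. Cma1 lies at 55941451 to 55944675 on the minus strand, followed by Cma2, Mcpt1, Mcpt9, Mcpt2, Mcpt4 at 56059629 to 56062313, Mcpt8 at 56082166 to 56085273, Ctsg and, after the other granzymes, Gzmb at 56258838 to 56262260. Mcpt4 was at 12266 CPM in mast-like cells and 0 UMIs in basophil-like cells, and the neighbouring Mcpt8 was the gene of this row that was higher in basophil-like cells, among those with at least 20 UMIs. Ctsg, the next gene, was at 70.4 CPM in 6 mast-like cells and 24.3 CPM in 4 basophil-like cells. Gzmb, the T and NK cell granzyme, was found in both, at 1980 CPM in 40 mast-like cells and 1243 CPM in 34 basophil-like cells, and was at 105 CPM in other myeloid cells and 2580 CPM in T cells. Prss34, a basophil protease on chromosome 17, was at 394 CPM in 9 mast-like cells and 432 CPM in 8 basophil-like cells, but 83.1% of the basophil-like UMIs came from 1 cell. Srgn, the serglycin core protein, was at 4125 CPM in mast-like and 9794 CPM in basophil-like cells, and at 3161 CPM in other myeloid cells.

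**Figure D2:**
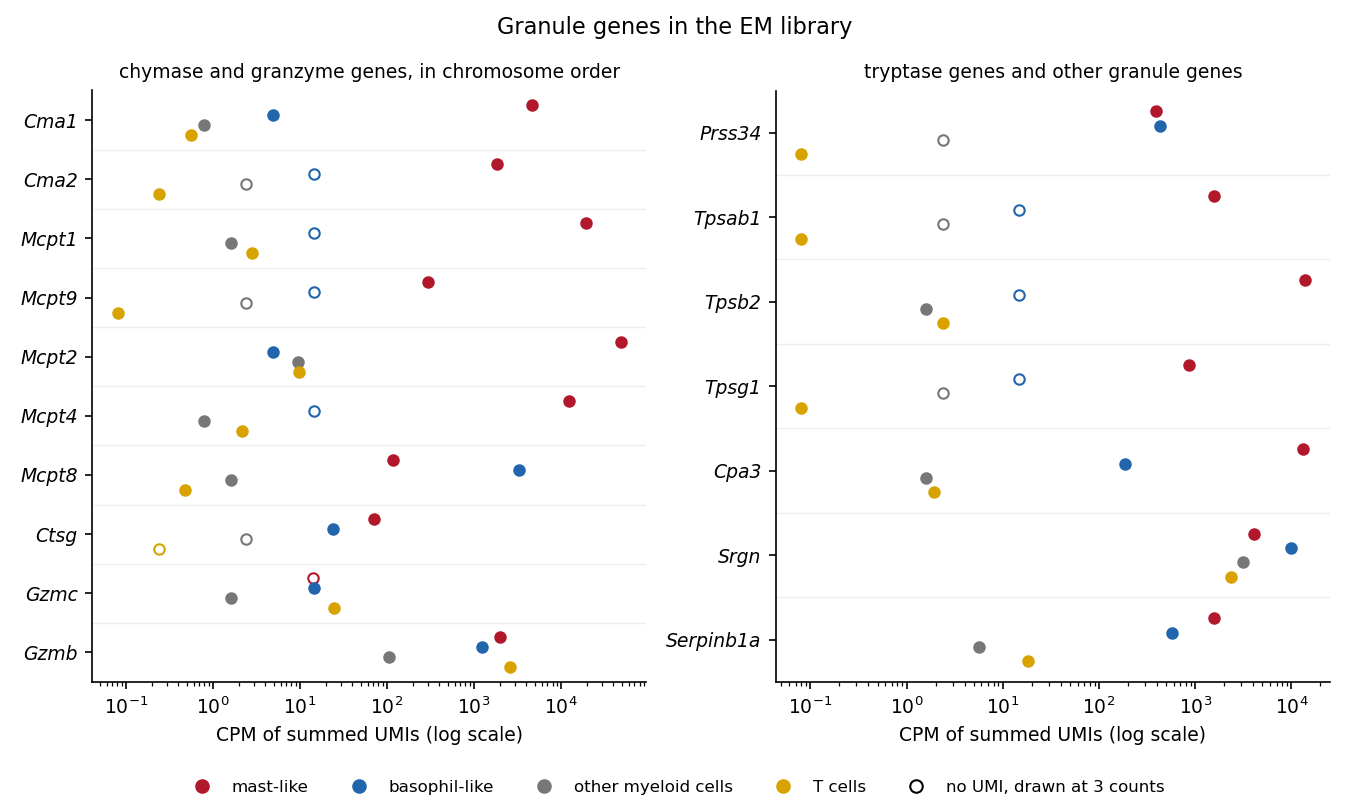
Level of granule genes (CPM of summed UMIs, log scale) in 52 mast-like cells, 98 basophil-like cells, 691 other myeloid cells and 4826 T cells of the EM library; open circles stand for no UMI and are drawn at 3 counts. Genes from Cma1 to Mcpt4 are high in mast-like cells (Mcpt4 12266 CPM), Mcpt8 is high in basophil-like cells (3307 CPM), and Prss34 is at 394 CPM in mast-like and 432 CPM in basophil-like cells.

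The named genes outside the rule fell under mast cell, basophil and shared genes. Relative to other myeloid cells, 424 of 7321 genes with at least 20 UMIs (5.79%) were at least 4-fold higher in members and 792 (10.8%) at least 4-fold lower; relative to T cells these were 670 of 11253 (5.95%) and 839 (7.46%). The split against T cells depended on the scaling, with 803 higher and 569 lower after centring on the median gene and 854 higher and 530 lower with median-of-ratios factors. The rule selected on these same contrasts, so nothing is read from the members' counts against them. Among genes also at least 4-fold higher than in T cells, the 20 highest over myeloid cells were Mcpt4, Mcpt1, Tpsb2, Cma1, Mcpt2, Gata2, Il1rl1, Tph1, Il4, Slc18a2, Scin, Cd200r3, Alox5, Cma2, Tpsab1, Myo1d, Atp8b5, Lif, Hdc and Slc45a3. The 10 lowest included the complement genes C1qa, C1qb and C1qc with Ms4a7, Cxcl9, Olfml3, Ly86, Ccnd1 and Sdc3, most of them macrophage genes; C1qa had 1 UMI in members and 1108 CPM in other myeloid cells (log2 ratio -8.86).

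Shared genes were found in most cells of both kinds. Gata2, the transcription factor both lineages need, was at 1436 CPM in 47 mast-like cells and 1738 CPM in 90 basophil-like cells, against 0.799 CPM in other myeloid cells. Cd200r3, an activating member of the CD200 receptor family, was at 906 CPM in mast-like and 1777 CPM in basophil-like cells and at no UMI in other myeloid cells, which makes the members at least 557-fold higher. Alox5, the first enzyme of leukotriene synthesis, was at 1126 CPM in mast-like and 821 CPM in basophil-like cells and at no UMI in other myeloid cells (members at least 407-fold higher). Among mast-like and basophil-like cells, 260 of 3162 genes (8.22%) were at least 4-fold higher in mast-like cells and 278 (8.79%) at least 4-fold lower. With each member thinned to 1000 UMIs these counts were 69 and 184 of 1150 genes. The 8 mast cell genes with Cpa3, Mcpt8, Cma2, Mcpt9, Tpsg1 and Prss34 took 11.9% of mast-like UMIs and 0.393% of basophil-like UMIs. All but Kit and Mrgprb2 are granule proteases, and Gzmb and Ctsg were not counted. Scaling without this set gave 312 higher and 250 lower genes.

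Amine and lipid mediators divided between the kinds. Hdc, which makes histamine, had 258 CPM in mast-like cells, 25 of them with a UMI, against 5113 CPM in basophil-like cells, where the lowest, median and highest cells had 0, 8 and 54 UMIs and 95 of 98 held it (log2 ratio of mast-like over basophil-like -4.31, interval -4.73 to -3.92). Of T cells, 42 of 4826 (0.870%) held Hdc. Tph1, the rate-limiting enzyme of serotonin synthesis outside the brain, went the other way, with 2041 CPM in 43 mast-like cells and no UMI in basophil-like cells (at least 140-fold higher). Slc18a2, which loads amines into granules, was at 831 CPM in mast-like and 257 CPM in basophil-like cells. Prostaglandin genes split by isoform: the constitutive cyclooxygenase Ptgs1 was at 136 CPM in 20 mast-like cells and no UMI in basophil-like cells, and the inducible Ptgs2 at no UMI in mast-like cells and 1209 CPM in 36 basophil-like cells. Hpgds, which makes prostaglandin D, was at 230 CPM in 32 mast-like cells and no UMI in basophil-like cells. Of the 11 genes of the histamine and lipid list with enough UMIs, 3 were at least 4-fold higher in mast-like cells and 3 lower. Over all genes 8.22% were higher and 8.79% lower. The list's median log2 ratio was 0.46, against 0.21 over all genes.

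Cytokine transcripts were mostly in basophil-like cells. Il4, which drives type 2 responses, was at 56.3 CPM in 11 mast-like cells and 1389 CPM in 37 basophil-like cells, with 0, 0 and 60 UMIs in the lowest, median and highest basophil-like cell, so 1 cell held 60 of 286 UMIs. The log2 ratio of mast-like over basophil-like cells was -4.62 (interval -5.59 to -3.80). Il6, the acute-phase cytokine, was at 65.7 CPM in 9 mast-like cells and 3787 CPM in 68 basophil-like cells, with 0, 3.5 and 42 UMIs per basophil-like cell (log2 -5.85, -6.73 to -5.09). These were rare elsewhere: 1 of 691 other myeloid cells and 7 of 4826 T cells (0.145%) held Il4, and 18 myeloid cells (2.60%) and 19 T cells (0.394%) held Il6. With each cell thinned to 1000 UMIs, Il4 was found in 4% of 50 mast-like cells and 29.03% of 93 basophil-like cells, and Il6 in 8% of mast-like and 63.4% of basophil-like cells.

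Other growth factors followed the same order. Osm, a relative of Il6, was at 75.1 CPM in 13 mast-like cells and 3574 CPM in 86 basophil-like cells, and Csf1, the macrophage growth factor, at 79.8 CPM in 13 mast-like cells and 2559 CPM in 84 basophil-like cells. Hgf, the ligand of the receptor Met, was at 4.69 CPM in 1 mast-like cell and 1311 CPM in 79 basophil-like cells, and Lif at 42.2 CPM in mast-like and 733 CPM in basophil-like cells. In other myeloid cells Osm was at 247 CPM, Csf1 at 35.1 CPM, Hgf at 13.6 CPM and Lif at 1.60 CPM. Tnf differed least, at 249 CPM in 25 mast-like cells and 476 CPM in 30 basophil-like cells (log2 -0.94, -1.45 to -0.44), beside 460 CPM in other myeloid cells. Other type 2 cytokines were scarce, with Il13 at no UMI in mast-like cells and 7 UMIs in 5 basophil-like cells. Csf2 had 10 UMIs in 3 basophil-like cells, and 16 Areg UMIs lay in 4 members. Il3, Il5, Il9, Il10, Il31, Il25 and Ifng had no UMI in any member.

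Over the list of cytokines and growth factors, 0 of 10 genes with enough UMIs were at least 4-fold higher in mast-like than in basophil-like cells and 7 were lower (Il4, Il6, Il1b, Csf1, Osm, Lif and Hgf), with a median log2 ratio of -4.81, beside 8.79% of all genes lower and a median of 0.21. Relative to other myeloid cells, 7 of 15 were higher in members and 2 lower, beside 5.79% and 10.8% of all genes. The list's median was 0.55, against -0.19 over all genes. That direction held for basophil-like cells and not for mast-like cells, whose median over myeloid cells was -0.89.

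Within the basophil-like cells Il4 and Il6 overlapped in part. Of the 98 cells, 74 held at least 1 of the pair and 31 held both. Il6 was found in 31 of the 37 cells with Il4 (83.8%) and in 37 of the 61 cells without it (60.7%). The Il4 cells were slightly deeper, with a median of 2299 UMIs against 2014 UMIs in the cells without, and the part of depth in this difference was not tested.

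Chemokines took 8.02% of all basophil-like UMIs for Ccl3, Ccl4, Ccl6, Ccl9 and Cxcl2 together, against 0.0460% in mast-like cells; the share was 0.280% in other myeloid cells and 0.0940% in T cells. Ccl3, a ligand of Ccr1, was at 277 CPM in 14 mast-like cells and 38374 CPM in 97 basophil-like cells, with 0, 77 and 264 UMIs per basophil-like cell (log2 of mast-like over basophil-like -7.11, -7.51 to -6.75). Ccl4, its relative, was at 174 CPM in 14 mast-like cells and 19903 CPM in 94 basophil-like cells, with 0, 40 and 134 UMIs per basophil-like cell. Nearly every basophil-like cell held both, 94 of 98.

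Ccl6 and Ccl9, mouse chemokines that act through Ccr1, had the same bias. Ccl6 was at 9.38 CPM in 2 mast-like cells and 12644 CPM in 94 basophil-like cells, with 0, 23 and 67 UMIs per basophil-like cell. Ccl9 was at no UMI in mast-like cells and 4948 CPM in 95 basophil-like cells, at least 351-fold lower in mast-like cells. Other myeloid cells held Ccl6 at 301 CPM and Ccl9 at 350 CPM. Cxcl2, a neutrophil attractant, was at no UMI in mast-like cells and 4326 CPM in 40 basophil-like cells, against 869 CPM in other myeloid cells, so it was found in fewer basophil-like cells than the other 4.

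Ccl2 and Ccl7 were the chemokines higher in mast-like than in basophil-like cells by at least 4-fold. Ccl2, the monocyte attractant that binds Ccr2, was at 1539 CPM in 40 mast-like cells and 24.3 CPM in 2 basophil-like cells (log2 5.99, 4.75 to 7.62), with 660 CPM in other myeloid cells. Ccl7, a relative of Ccl2, was at 155 CPM in 7 mast-like cells and no UMI in basophil-like cells. Of 9 chemokine genes with enough UMIs, these 2 were at least 4-fold higher in mast-like cells, and 6 were lower, the 5 above and Cxcl10. Of all genes 8.22% were higher and 8.79% lower. Relative to other myeloid cells 0 of 14 chemokine genes were at least 4-fold higher in mast-like cells and 9 lower. The median log2 ratio there was -3.36. Over all genes in that comparison 4.97% were higher and 10.3% lower, with a median of -0.05.

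**Figure D3:**
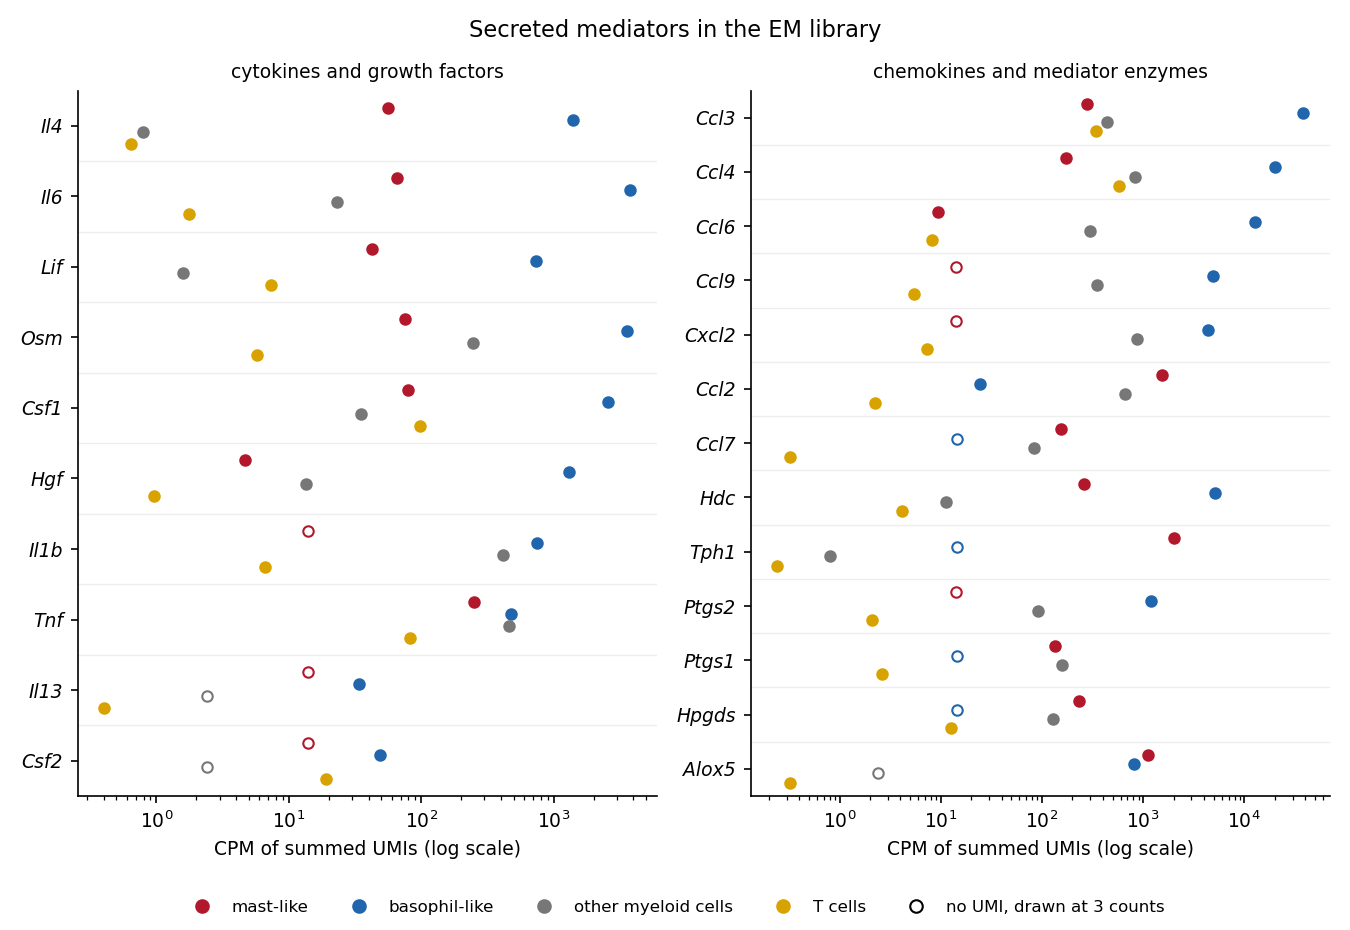
Level of cytokine, growth factor, chemokine and mediator enzyme genes (CPM of summed UMIs, log scale) in mast-like, basophil-like, other myeloid and T cells of the EM library; open circles stand for no UMI and are drawn at 3 counts. Il4, Il6, Osm, Csf1, Hgf and Ccl3 to Cxcl2 are highest in basophil-like cells, and Ccl2, Ccl7, Tph1 and Hpgds in mast-like cells (Tph1 2041 CPM).

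Receptors divided too. Il1rl1, the receptor for the alarmin Il33, was at 3641 CPM in 50 mast-like cells and 588 CPM in 52 basophil-like cells (log2 2.63, 2.35 to 2.92), against 1.60 CPM in other myeloid cells and 38.2 CPM in T cells. Kit, which helped choose the mast-like cells, was at 1835 CPM in 49 of them, with 0, 7 and 20 UMIs per cell. The Il18 receptor chain Il18rap was at no UMI in mast-like cells and 379 CPM in 51 basophil-like cells, with 18.4 CPM in other myeloid cells and 80.1 CPM in T cells. Csf2rb, the signalling chain for Il3, Il5 and GM-CSF, was at 1182 CPM in mast-like and 1690 CPM in basophil-like cells, beside 384 CPM in other myeloid cells; Csf2rb2 is a near copy, so reads may be split. Il3ra, the binding chain for the basophil growth factor Il3, was sparse, at 21.5 CPM in 9 members. Of 24 cytokine receptor genes, 6 were at least 4-fold higher in members than in other myeloid cells and 4 lower. The 6 were Il1rl1, Kit, Il18r1, Il18rap, Csf2rb2 and Il7r. Over all genes 5.79% were higher and 10.8% lower. The list's median log2 ratio was -0.23, against -0.19 over all genes.

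The genes that carry the IgE signal stood closer to the other myeloid cells. Of 21 signalling genes outside the rule, 2 were at least 4-fold higher in members, the adaptors Lat (log2 4.11) and Lat2 (2.42). Another 2 were lower, beside 5.79% of all genes higher and 10.8% lower. The list's median was -0.76, against -0.19 over all genes. Fcer1g, the gamma chain that several Fc receptors share, was at 1915 CPM in mast-like and 2544 CPM in basophil-like cells, and at 3758 CPM in other myeloid cells. Relative to T cells 11 of 22 were higher and 1 lower, beside 5.95% and 7.46% of all genes. In mast-like relative to basophil-like cells 1 of 18 was higher and 2 lower, near the shares of all genes (8.22% and 8.79%).

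Adhesion and migration genes were mostly lower in mast-like cells. Of 24 such genes, 3 were at least 4-fold higher in mast-like than in basophil-like cells, Cx3cr1, Itga4 and P2rx7, and 10 were lower. Over all genes 8.22% were higher and 8.79% lower. The list's median log2 ratio was -1.56, against 0.21 over all genes. Cxcr2, the receptor for Cxcl2 and its relatives, was at no UMI in mast-like cells and 855 CPM in 62 basophil-like cells, against 2.40 CPM in other myeloid cells. Itgam, the integrin chain CD11b, was at 9.38 CPM in 1 mast-like cell and 709 CPM in 54 basophil-like cells, and the anaphylatoxin receptor C5ar1 at no UMI in mast-like cells and 568 CPM in 59 basophil-like cells. Cxcr2 is also a neutrophil gene; of the 10 neutrophil markers 7 were at 0 in members, among them S100a8 and Ly6g. Of the 10 eosinophil markers 5 were at 0, Epx and Prg2 included.

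Several degranulation and inhibitory receptor genes were present in both kinds, but Rab27b was almost confined to mast-like cells. Cd63, a granule membrane protein that reaches the surface on degranulation, was at 3482 CPM in all 52 mast-like cells and 1000.2 CPM in 80 basophil-like cells, against 631 CPM in other myeloid cells. Rab27b, a GTPase that docks granules, was at 432 CPM in 36 mast-like cells and 4.86 CPM in 1 basophil-like cell, whereas Rab44 was at 375 CPM in mast-like and 1107 CPM in basophil-like cells. Among 23 exocytosis genes, 3 were at least 4-fold higher in members than in other myeloid cells and 2 lower. The shares of all genes were 5.79% and 10.8%. This list's median log2 ratio was -0.24, against -0.19 over all genes. Of 19 inhibitory and paired receptor genes, 5 were at least 4-fold higher in members than in other myeloid cells, Cd200r1, Cd200r3, Cd200r4, Lilrb4a and Lilr4b, and 4 were lower, Cd300a, Clec4a2, Clec12a and Siglece, beside 5.79% and 10.8% of all genes. The list's median log2 ratio was -0.82, with 12 of 19 genes below 0, against a median of -0.19 over all genes. Lilr4b and Lilrb4a are near copies. Cd274, the checkpoint ligand PD-L1, was at 127 CPM in mast-like, 180 CPM in basophil-like and 183 CPM in other myeloid cells (log2 ratio of members over other myeloid cells -0.26).

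Transcription factors separated both kinds beyond the shared Gata2. Mitf, a regulator of mast cell genes, was at 291 CPM in 31 mast-like cells and 4.86 CPM in 1 basophil-like cell, beside 30.3 CPM in other myeloid cells. It was the 1 factor of 20 at least 4-fold higher in mast-like cells. The 6 lower were Cebpa, Cebpb, Cebpd, Runx1, Runx2 and Nfil3, beside 8.22% of all genes higher and 8.79% lower. The list's median log2 ratio was -0.41, against 0.21 over all genes. Cebpa, which directs basophil over mast cell fate in mouse progenitors, was at no UMI in mast-like cells and 170 CPM in 22 basophil-like cells, and Runx1 was at 192 CPM in mast-like and 1097 CPM in basophil-like cells (log2 -2.51). Of 27 factors, Gata1, Gata2, Ikzf2 and Mitf were at least 4-fold higher in members than in other myeloid cells. Another 4 were lower, Spi1, Irf8 and Tcf4 among them, beside 5.79% of all genes higher and 10.8% lower.

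Cyp11a1 had few partners of steroid synthesis beside it. Fdx1, the ferredoxin that hands electrons to Cyp11a1, was at 206 CPM in 18 mast-like cells and 9.71 CPM in 2 basophil-like cells, so it was higher in the kind with less Cyp11a1. Star, which brings cholesterol into mitochondria, had 1 UMI in members, and Hsd3b1, which makes progesterone from the Cyp11a1 product, had none.

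Immediate early genes, which switch on within minutes of a stimulus and also during tissue dissociation, were high in basophil-like cells. The 27 genes summed per cell to 1812, 32850 and 92052 CPM in mast-like cells and 9434, 99530 and 167192 CPM in basophil-like cells as the lowest, median and highest values, against 0, 1541 and 74061 CPM in other myeloid cells and 0, 10335 and 64891 CPM in T cells. Of the myeloid cells, which were the shallowest at a median of 1132 UMIs, 212 of 691 were at 0. Egr1 was at 4402 CPM in mast-like, 14445 CPM in basophil-like, 717 CPM in other myeloid and 274 CPM in T cells. Zfp36, which destabilises cytokine mRNAs, was at 1056 CPM in mast-like and 18014 CPM in basophil-like cells, against 3382 CPM in other myeloid cells. Fosb and Jun were high in both, Fosb at 6086 CPM in mast-like and 9876 CPM in basophil-like cells, against 767 CPM in other myeloid cells.

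By count, 11 of the 27 were at least 4-fold higher in members than in other myeloid cells and 6 lower, with a median of 1.47. Over all genes 5.79% were higher and 10.8% lower, with a median of -0.19. In basophil-like cells alone 14 were higher and 3 lower than in other myeloid cells, with a median of 2.11, beside 383 (5.67%) higher and 1003 (14.8%) lower of 6755 genes and a median of -0.57 over all genes. In mast-like cells 4 of 26 were higher and 8 lower, with a median of -0.26, beside 346 (4.97%) higher and 719 (10.3%) lower of 6959 genes and a median of -0.05. The 6 genes lower in members included the heat shock genes Hspa1a and Hspa1b; Hspa1a was at 4.77 CPM in members and 87.1 CPM in other myeloid cells.

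Most interferon response genes were lower in both kinds than in other myeloid cells. In each kind 2 genes had a ratio above 1, and Ifitm1 was higher in both kinds, most of all in basophil-like cells. Of the 33 genes of the list 31 were found in the files. Relative to other myeloid cells 1 gene was at least 4-fold higher in members, Ifitm1, and 18 were lower. Over all genes 5.79% were higher and 10.8% lower. The list's median log2 ratio was -2.60, against -0.19 over all genes. By kind it was -1.99 in basophil-like cells and -3.48 in mast-like cells. Isg15, a ubiquitin-like protein, was at 14.1 CPM in mast-like, 282 CPM in basophil-like and 522 CPM in other myeloid cells, and Ifi204, a DNA sensor, at 4.69 CPM in mast-like, 53.4 CPM in basophil-like and 997 CPM in other myeloid cells. Relative to T cells the members' median was -0.85, with 3 genes higher and 5 lower, beside 5.95% and 7.46% of all genes. By kind the median over T cells was -1.66 in mast-like cells, against -0.04 over all genes, and -0.32 in basophil-like cells, against -0.27 over all genes. Ifitm1 was at 882 CPM in mast-like, 9289 CPM in 97 basophil-like, 110 CPM in other myeloid and 447 CPM in T cells. Summed per cell, all 31 genes had a median of 2946 CPM in mast-like and 15335 CPM in basophil-like cells, against 7752 CPM in other myeloid cells and 6278 CPM in T cells, so this sum was highest in basophil-like cells. The order turned on Ifitm1, Ifitm2 and Ifitm3: without them the 28 remaining genes summed to a median of 1249 CPM per mast-like cell and 1688 CPM per basophil-like cell, against 6285 CPM in other myeloid cells and 5464 CPM in T cells.

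MHC class II genes were lower in both kinds than in other myeloid cells. The 6 class II genes summed to 244 CPM in mast-like and 495 CPM in basophil-like cells, against 23703 CPM in other myeloid cells and 740.0 CPM in T cells. No class II UMI was found in 30 of 52 mast-like and 80 of 98 basophil-like cells, and 1 basophil-like cell held 71 UMIs; without it the basophil-like level was 153 CPM. H2-Ab1 was at 84.5 CPM in mast-like and 141 CPM in basophil-like cells, against 5739 CPM in other myeloid cells and 165 CPM in T cells, and 48.9% of the members' UMIs came from 1 cell. Class I was closer, with H2-K1 at 2492 CPM in mast-like and 2904 CPM in basophil-like cells, against 4313 CPM in other myeloid cells. Of 21 antigen presentation and costimulation genes 12 were at least 4-fold lower in members than in other myeloid cells and 0 higher. Over all genes 10.8% were lower and 5.79% higher. The list's median was -2.51, against -0.19 over all genes.

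**Figure D4:**
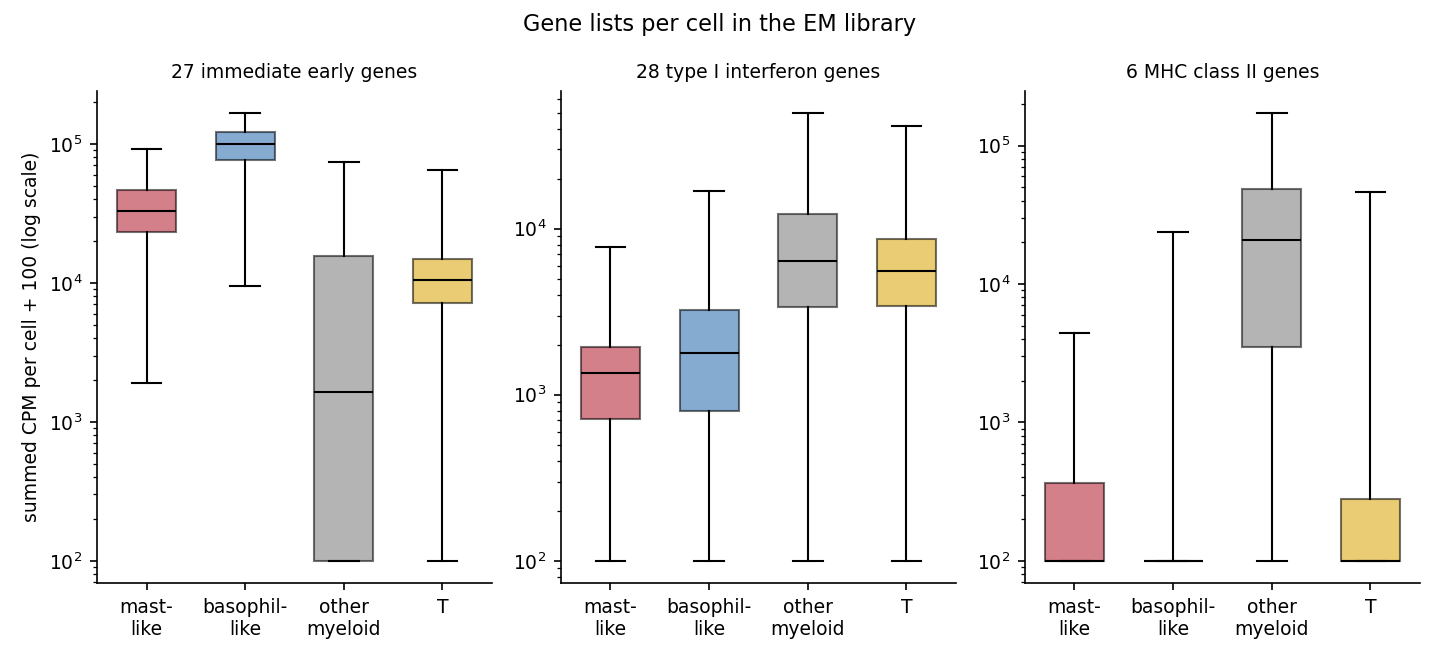
Summed CPM per cell (plus 100, log scale) of 27 immediate early genes, 28 interferon response genes (without Ifitm1, Ifitm2 and Ifitm3) and 6 MHC class II genes in mast-like, basophil-like, other myeloid and T cells of the EM library; boxes span the quartiles, the line is the median and whiskers reach the lowest and highest cell. The immediate early median is highest in basophil-like cells (99530 CPM before the 100 is added), and the class II medians and those of the 28 interferon genes lie below other myeloid cells in both kinds; with all 31 interferon genes the basophil-like median is above, at 15335 CPM.

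Few members showed cell division transcripts. Mki67 had 22 UMIs in 4 mast-like cells, 86.4% of them in 1 cell, and none in basophil-like cells. Of 22 cell cycle genes 0 were at least 4-fold higher and 8 lower in members than in other myeloid cells, with a median of -1.57. Over all genes 5.79% were higher and 10.8% lower, with a median of -0.19. By kind the list's median was -0.69 in mast-like and -1.41 in basophil-like cells, against -0.05 and -0.57 over all genes. Of 22 survival genes 2 were higher in members, Pim2 and Cish, and 3 were lower, Bcl2a1a, Bcl2a1b and Bcl2a1d, with a median of -0.01, which is near the shares of all genes (5.79% and 10.8%). The 3 lower genes are near copies of each other, and Bcl2a1b was at no UMI in members and 204 CPM in other myeloid cells. Of 20 hypoxia and glycolysis genes 3 were higher and 0 lower, with 11 of 20 below 0 and a median of -0.46, against -0.19 over all genes. The glucose transporter Slc2a3 was at 172 CPM in members and 9.58 CPM in other myeloid cells.

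Members were far rarer in the PBS library. The same rule kept 150 of 7967 EM cells (1.88%) and 3 of 7756 PBS cells (0.0387%, interval 0.00798 to 0.113), a ratio of 48.7 (16.3 to 239). With every cell thinned to 500 UMIs the rule kept 98 EM cells (1.23%) and 1 PBS cell (0.0129%). By kind there were 52 mast-like cells in EM and 1 in PBS, and 98 basophil-like cells in EM and 2 in PBS. The PBS mast-like cell had 4941 UMIs, among them 204 of Mcpt2, 34 of Cpa3, 10 of Kit and 8 of Tpsb2, but 1 of Cma1 and none of Mcpt1, Mcpt4 or Tpsab1. 1 PBS basophil-like cell, with 2739 UMIs, held 40 of Ccl3, 38 of Ccl4, 15 of Hdc and 10 of Gata2, and the other, with 1627 UMIs, held 16 of Ccl3, 9 of Ccl4, 8 of Hdc and 18 of Il6. Neither held Mcpt8 or Il4. The PBS cells thus held some of the leading genes of their kind and lacked others, and their number is too small to compare levels. The difference in share is between 2 libraries that also differ in sex-linked transcripts, and treatment and animals cannot be told apart in it.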

How the data were processed

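Unique molecular identifier counts per gene and cell were analysed as the authors deposited them, as 1 raw count matrix per library. CASAVA 1.8, STARsolo and the mm10 build are named in the submitters' processing notes, with no settings. Cells with at least 500 UMIs, at least 200 genes and at most 20% mitochondrial UMIs were kept. UMIs were summed over cells of a kind and divided by their total (CPM). Ratios carry exact conditional 95% intervals and shares exact Clopper-Pearson intervals; PCR copies beyond the identifiers and variation between animals are not covered. Genes with at least 20 UMIs over both groups entered counts, called at 4-fold, and a group at 0 was set to 3 counts. A fold given as at least a value rests on these 3 counts, and the exact interval can reach lower. Named genes were the 20 highest and 10 lowest ratios to other myeloid cells above 50 CPM, a fixed set of marker and mediator genes, and list genes with the highest and lowest ratios first. The 20 highest were also at least 4-fold higher than in T cells. Genes that chose the cells were left out of the 20 and the 10. So were mitochondrial, ribosomal, haemoglobin, immunoglobulin, T cell receptor segment, unnamed, X-inactivation and Y genes. Members and lists were chosen with earlier results of these data known. Genes named beyond these rules, such as those in each list's count, were chosen after their values were seen. Doublets were not removed. Python 3.11.15, numpy 2.4.6, pandas 2.3.3, scipy 1.17.1 and matplotlib 3.10.9 were used. The ratio code was tested on simulated data. Alternatives were other filters, minimums, scalings, thinning to 1000 UMIs and either kind alone.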

Additional observations from a re-analysis of the deposited data

How the results depend on the processing

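Of 75 alternatives to the main shares and counts, 67 stayed within 1.5 times or within the interval and 8 moved. The EM share was 1.19% with at least 10 rule UMIs and 1.23% with cells thinned to 500 UMIs. Genes at least 4-fold higher in members than in other myeloid cells numbered 259 of 4686 with a minimum of 50 UMIs. With no minimum they numbered 963 of 13894. Relative to T cells 1659 of 17762 were higher with no minimum, and 530 of 11253 lower with median-of-ratios scaling. With cells thinned to 1000 UMIs, 69 of 1150 genes were higher and 184 lower in mast-like than in basophil-like cells. Of 1331 alternatives for named genes and lists 1116 stayed, 204 moved and 11 turned sign. A turn was counted for any list median, but for a gene only where its main ratio was at least 4-fold. Sign changes of smaller gene ratios are among those that stayed or moved. With basophil-like cells alone Mcpt2 had a log2 ratio of -0.98 over other myeloid cells and -1.01 over T cells. With mast-like cells alone, the log2 ratio over other myeloid cells was -0.26 for the immediate early list, -0.89 for the cytokine list, -0.68 for Ccl3 and -2.27 for Ccl4, and over T cells it was -0.30 for Csf1, -0.30 for Ccl3 and -1.73 for Ccl4. Il18rap had no UMI in mast-like cells, and setting them to 3 counts gives -0.38 over other myeloid cells, an upper bound and not a ratio. The antigen presentation list's median of mast-like over basophil-like cells was 0.042 with thinned cells. Settings for either kind alone, thinning within members, leaving out 1 class II cell and other splits were chosen after seeing the data. Where a value changed, the cause was not tested, beyond the fewer cells or genes that an alternative leaves. No paired analysis was possible because each treatment has 1 library. Depth limits the other myeloid cells most, at a median of 1132 UMIs per cell.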
